A study of Mus musculus with 16 samples.

Results

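Chek1, Brca1, Brca2, Exo1, Polq, Blm and Uhrf1 act when DNA is copied or broken, in the replication checkpoint, in recombination repair, in end joining and in the upkeep of DNA methylation. Their messenger RNA was measured on 16 one-colour arrays, each holding the whole-lung RNA of 1 newborn mouse of the inbred strain BALB/c. The 7 genes were found by name or older synonym among the probes of the array that are not controls, and they are 7 of the 21638 genes tested. They have 12 probes, of which 11 were kept, and each of the 7 genes kept at least 1 probe. All groups were pups aged 3 days that breathed ozone or filtered air for 3 h. The 4 groups were lungs taken 6 h after ozone at 1000 ppb, lungs taken 6 h after filtered air, lungs taken 24 h after ozone at 1000 ppb and lungs taken 24 h after filtered air, with 4 lungs in each. Per the labels, each time point was run separately with its own air littermates, and all pups were with a dam, some by cross-fostering, while they were exposed. Whole lung holds many cell types, so fewer dividing cells and less RNA of these genes per cell cannot be told apart here.

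When a replication fork stalls, single-stranded DNA recruits the kinase ATR, which activates the checkpoint kinase CHK1, and CHK1 holds back the cyclin-dependent kinases until replication is complete. A broken end is cut back by nucleases, among them EXO1, and BRCA1 and BRCA2 prepare it for recombination, in which the sister chromatid serves as template. BLM, a RecQ helicase, takes apart the joined intermediates, and the polymerase encoded by Polq joins resected ends through short matching stretches. UHRF1 binds half-methylated DNA behind the fork and brings in the methyltransferase DNMT1. Transcripts of such genes are typically most abundant in cells that are copying or about to divide their DNA, and the lung of a newborn mouse still grows by cell division.

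The 16 arrays had a 75th percentile of processed signal between 574 and 946, and the share of spots well above background was 65.0% to 83.9%. Ozone replicate 3 at 6 h had the highest share, and no other array of 6 h exceeded 72.4%. No spot was saturated. Arrays lay on 4 slides, each with 2 ozone and 2 air lungs of 1 time point. All values below are log2 signals relative to the 75th percentile of the array, so 0 stands for a signal equal to that percentile. A gene is said to have fallen or risen only at a Benjamini-Hochberg adjusted p under 0.05 over all 21638 genes in limma. At 6 h 295 genes rose and 675 fell with ozone (4.48% of all genes together), and at 24 h 146 rose and 283 fell (1.98%). The median ozone minus air difference of all genes was 0.07 at 6 h and 0.02 at 24 h. The 6 h count rested on single arrays, since 196 genes were called in either direction without air replicate 4, 433 to 621 without ozone replicate 1, 2 or 3 or air replicate 1, and 1690 without air replicate 2. The 24 h count of calls was 263 to 282 without ozone replicate 3 or 4 or air replicate 1, 2 or 3 of 24 h.

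The brightest probe of a gene stands for it below. On build mm9 these probes lie at chr9:36517425-36517484 (minus strand) for Chek1, chr11:101350409-101350468 (minus) for Brca1, chr5:151372225-151372284 (plus) for Brca2 and chr1:177838682-177838741 (plus) for Exo1. They lie at chr16:37094145-37094204 (plus) for Polq, chr7:87600243-87600302 (minus) for Blm and chr17:56462657-56462716 (plus) for Uhrf1. The 7 genes are thus on 7 chromosomes, and the exon or untranslated region under each probe was not analysed here. Levels of different probes cannot be set against each other. The sequences of 3 probes are shown because the results turn on them. The first is the Polq probe used below, which was dim. The others are second probes of Brca1 and Brca2, whose differences did not pass at either time. The second Brca1 probe spans 4037 bases of the genome with its 60 bases, so it crosses a splice junction, and it lies at chr11:101359283-101363319. The second Brca2 probe begins at base 311 of its transcript, at chr5:151325787-151325846, whereas the brighter one begins at base 10440.
Polq, probe A_52_P415229: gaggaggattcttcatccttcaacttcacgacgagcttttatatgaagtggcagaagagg
Brca1, probe A_52_P18267: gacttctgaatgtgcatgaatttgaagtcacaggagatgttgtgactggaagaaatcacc
Brca2, probe A_52_P513394: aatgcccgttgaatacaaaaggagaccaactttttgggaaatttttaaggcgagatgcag

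Because the 7 genes were lower together, their promoters were searched for 3 motifs of cell cycle genes. RefSeq windows on GRCm38.p6, from 250 bases before to 50 bases after the transcript start, were held for 6 of the 7 genes, all but Exo1, and Uhrf1 had 2 windows. Both strands were searched. The E2F site, bound by factors that govern entry into S phase, was spelled TTTCCCGC, TTTGGCGC, TTTCGCGC or TTTGCCGC. The CHR element, found in many genes of late cell cycle, was spelled TTTGAA, and the CCAAT box, bound by NF-Y, was spelled CCAAT. Only exact spellings that lay whole within a window were counted, so variants and sites cut by its end were missed. An E2F spelling was present in Brca2 and in 1 window of Uhrf1, and in 2.26% of all 32851 promoter windows. The Chek1 window ends in gcgggaa, 1 base short of the other-strand spelling GCGGGAAA, and the bases beyond it were not searched. The CHR spelling was present in Polq, with 2 matches, and in 17.9% of all windows. The CCAAT spelling was present in Brca1, Blm and both windows of Uhrf1, and in 37.4% of all windows. The 3 windows with an E2F or CHR spelling follow, all on the plus strand, with those letters in capitals. They lie at chr5:150522371-150522670, chr17:56304063-56304362 and chr16:37011536-37011835.
Brca2: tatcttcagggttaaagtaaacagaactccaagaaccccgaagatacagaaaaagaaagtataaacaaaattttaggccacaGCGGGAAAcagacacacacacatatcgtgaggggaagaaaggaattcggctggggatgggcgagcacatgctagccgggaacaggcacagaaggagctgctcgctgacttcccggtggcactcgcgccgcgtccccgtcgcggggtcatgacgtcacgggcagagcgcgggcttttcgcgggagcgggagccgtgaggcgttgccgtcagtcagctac
Uhrf1: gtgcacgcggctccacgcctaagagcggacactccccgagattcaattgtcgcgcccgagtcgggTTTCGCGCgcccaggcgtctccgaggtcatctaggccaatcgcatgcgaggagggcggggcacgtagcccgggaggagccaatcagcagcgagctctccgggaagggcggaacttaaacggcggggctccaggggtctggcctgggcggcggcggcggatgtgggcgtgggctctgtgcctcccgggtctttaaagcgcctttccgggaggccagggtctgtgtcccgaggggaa
Polq: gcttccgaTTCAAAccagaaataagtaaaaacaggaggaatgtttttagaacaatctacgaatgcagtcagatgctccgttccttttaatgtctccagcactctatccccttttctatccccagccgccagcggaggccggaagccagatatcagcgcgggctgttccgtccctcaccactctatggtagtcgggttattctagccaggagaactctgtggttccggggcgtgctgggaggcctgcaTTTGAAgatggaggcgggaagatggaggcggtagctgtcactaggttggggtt

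Chek1, which encodes the checkpoint kinase CHK1, was lower in the ozone lungs at 6 h. It read -2.43, -2.91, -2.41 and -2.30 in the ozone lungs at 6 h, against -1.73, -1.80, -1.26 and -1.42 in the air lungs. All 4 ozone lungs lay below all 4 air lungs, and ozone replicate 2 was the lowest. The level averaged -2.51 ± 0.27 in ozone and -1.55 ± 0.25 in air (SD, n = 4 each), a difference of -0.96 ± 0.15 (SE, limma adjusted p = 0.00308), or 48.5% lower. At 24 h Chek1 read -2.45, -2.39, -2.73 and -2.72 in the ozone lungs, against -2.05, -1.92, -2.07 and -2.23 in the air lungs. The groups again did not overlap, with replicates 3 and 4 the lowest in ozone. The difference of -0.50 ± 0.15 did not pass over all genes (limma adjusted p = 0.106). It did pass with slide as a block (limma adjusted p = 0.0252), when the 8 arrays of 24 h were fitted alone (limma adjusted p = 0.0454) and with array weights (limma adjusted p = 0.00951). These were 3 of the 13 alternative settings, and 0 of the 16 fits with 1 array left out called Chek1 at 24 h. At 6 h the difference was -0.55 (limma adjusted p = 0.0537) under normexp background correction, which models signal and background together. A second probe of Chek1, which begins at base 1709 of the transcript against base 1948 for the first, gave -0.83 ± 0.17 at 6 h (limma adjusted p = 0.0155, adjusted over all 32351 probes) and -0.55 ± 0.17 at 24 h (limma adjusted p = 0.141).

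Brca1, whose protein directs broken ends to recombination, fell at both times. It read -1.13, -1.20, -0.89 and -1.26 in the ozone lungs at 6 h, against -0.51, -0.45, -0.63 and -0.33 in the air lungs. It read -1.003, -0.80, -1.02 and -0.98 in the ozone lungs at 24 h, against -0.15, -0.08, -0.01 and -0.15 in the air lungs. At each time the lowest air lung was above the highest ozone lung, and the 24 h air lungs lay closest together. Brca1 was 35.7% lower with ozone at 6 h, a difference of -0.64 ± 0.09 (SE, n = 4 per group, limma adjusted p = 0.00193). At 24 h it was 44.8% lower, -0.86 ± 0.09 (limma adjusted p = 0.000159), which placed it at rank 4 of all genes in order of p. Its second probe was dim, well above background on 1 of the 4 ozone arrays of 6 h and on all 4 arrays of the other groups. That probe gave -0.66 ± 0.38 at 6 h and -1.19 ± 0.38 at 24 h (limma adjusted p = 0.346 and 0.157). The mean of both probes kept the 6 h difference at -0.65 but not its call (limma adjusted p = 0.0940).

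Brca2, whose protein acts in recombination at broken ends, fell at 24 h. It read -0.19, -0.21, -0.38 and -0.29 in the ozone lungs at 24 h, against 0.17, -0.02, 0.30 and 0.24 in the air lungs. The groups did not overlap, and the difference was -0.44 ± 0.08 (SE, limma adjusted p = 0.00696), or 26.2% lower. At 6 h it read 0.09, -0.15, -0.01 and -0.17 in the ozone lungs, against 0.25, 0.17, 0.22 and 0.29 in the air lungs. These groups did not overlap either, but the gap between ozone replicate 1 and air replicate 2 was small, and -0.29 ± 0.08 did not pass (limma adjusted p = 0.0541). Brca2 passed at 6 h without ozone replicate 1 of 6 h, without air replicate 2 of 6 h and without air replicate 2 of 24 h, with limma adjusted p = 0.0483, 0.0459 and 0.0478. These were 3 of the 16 fits with 1 array left out, and 2 of the 13 alternative settings called Brca2 at 6 h. The second Brca2 probe gave 0.07 ± 0.27 at 6 h, of the other sign, and -0.53 ± 0.27 at 24 h (limma adjusted p = 0.896 and 0.465). With the mean of both probes the 24 h difference of -0.49 was not called (limma adjusted p = 0.119).

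Exo1, which encodes a nuclease that cuts back DNA ends and also works in mismatch repair, fell at 6 h. It read -0.18, -0.59, 0.16 and -0.31 in the ozone lungs at 6 h, against 0.73, 0.53, 0.23 and 0.56 in the air lungs. Ozone replicate 3 and air replicate 3, which shared a slide, almost met, and the other lungs were well apart. The difference was -0.74 ± 0.14 (SE, n = 4 per group, limma adjusted p = 0.0103), or 40.1% lower. On the slide of replicates 1 and 2 it was -1.01, and on the slide of replicates 3 and 4 it was -0.47. At 24 h Exo1 read 0.00, 0.10, -0.34 and -0.34 in the ozone lungs, against 0.26, 0.43, 0.50 and 0.38 in the air lungs. The groups did not overlap, and -0.54 ± 0.14 fell short of the threshold (limma adjusted p = 0.0662). It passed at 24 h in 4 of the 16 fits with 1 array left out, namely replicate 2 or 3 of the 6 h ozone lungs, replicate 3 of the 6 h air lungs, or replicate 2 of the 24 h ozone lungs, with limma adjusted p between 0.0310 and 0.0483. It also passed with normexp (limma adjusted p = 0.0227), quantile normalization (limma adjusted p = 0.0413) and the deposited value table (limma adjusted p = 0.0492). The 24 h arrays alone (limma adjusted p = 0.0322), array weights (limma adjusted p = 0.00421) and the slide of replicates 3 and 4 (limma adjusted p = 0.0451) called it too. These were 6 of the 13 alternative settings.

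Blm, the helicase that dissolves joined recombination intermediates, fell at both times. It read -0.03, -0.25, -0.10 and -0.30 in the ozone lungs at 6 h, against 0.20, 0.26, 0.24 and 0.30 in the air lungs. It read 0.09, -0.08, -0.18 and -0.14 in the ozone lungs at 24 h, against 0.36, 0.27, 0.46 and 0.41 in the air lungs. No ozone lung reached the lowest air lung at either time. The differences were -0.42 ± 0.08 at 6 h (SE, n = 4 per group, limma adjusted p = 0.00906) and -0.45 ± 0.08 at 24 h (limma adjusted p = 0.00436), or 25.2% and 26.8% lower. With the 6 h arrays fitted alone, the 6 h difference of Blm was not called (limma adjusted p = 0.0614).

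Polq, which encodes the polymerase of microhomology-mediated end joining, gave the largest difference of the 7 at 24 h, on a dim probe. It read -4.32, -4.00, -4.14 and -4.12 in the ozone lungs at 24 h, against -2.99, -3.07, -3.18 and -3.04 in the air lungs. The gap between the groups was wider than the range within either. The difference was -1.07 ± 0.18 (SE, n = 4 per group, limma adjusted p = 0.00270), or 52.5% lower. At 6 h it read -5.04, -4.88, -4.15 and -4.64 in the ozone lungs, against -3.89, -3.78, -3.90 and -3.86 in the air lungs. The 4 air lungs were nearly equal, the ozone lungs were spread, and ozone replicate 3 was the highest of them. The 6 h difference was -0.82 ± 0.18 (limma adjusted p = 0.0177), or 43.4% lower, but the probe was well above background on 2 of the 4 ozone arrays of 6 h, against all 4 arrays of each other group. This 6 h value depended on how the background was treated, since normexp gave -0.03 (limma adjusted p = 0.943). Without air replicate 4 of 6 h the difference stayed at -0.82 but was not called (limma adjusted p = 0.0668). Under normexp the 24 h difference was -0.89 (limma adjusted p = 0.0707). The other Polq probe was well above background on 0 of 16 arrays and was left out.

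Uhrf1, whose protein reads half-methylated DNA after replication, fell at both times. It read 0.44, -0.06, 0.56 and 0.29 in the ozone lungs at 6 h, against 1.03, 0.96, 0.83 and 1.04 in the air lungs. It read 0.89, 0.76, 0.67 and 0.72 in the ozone lungs at 24 h, against 1.49, 1.46, 1.57 and 1.30 in the air lungs. The ozone and air groups did not overlap at either time. The differences were -0.66 ± 0.11 at 6 h (SE, n = 4 per group, limma adjusted p = 0.00352) and -0.69 ± 0.11 at 24 h (limma adjusted p = 0.00164), or 36.7% and 38.2% lower. Its second probe, in the same transcript, gave -0.64 ± 0.11 and -0.57 ± 0.11 (limma adjusted p = 0.00618 and 0.0105).

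**Figure D1:**
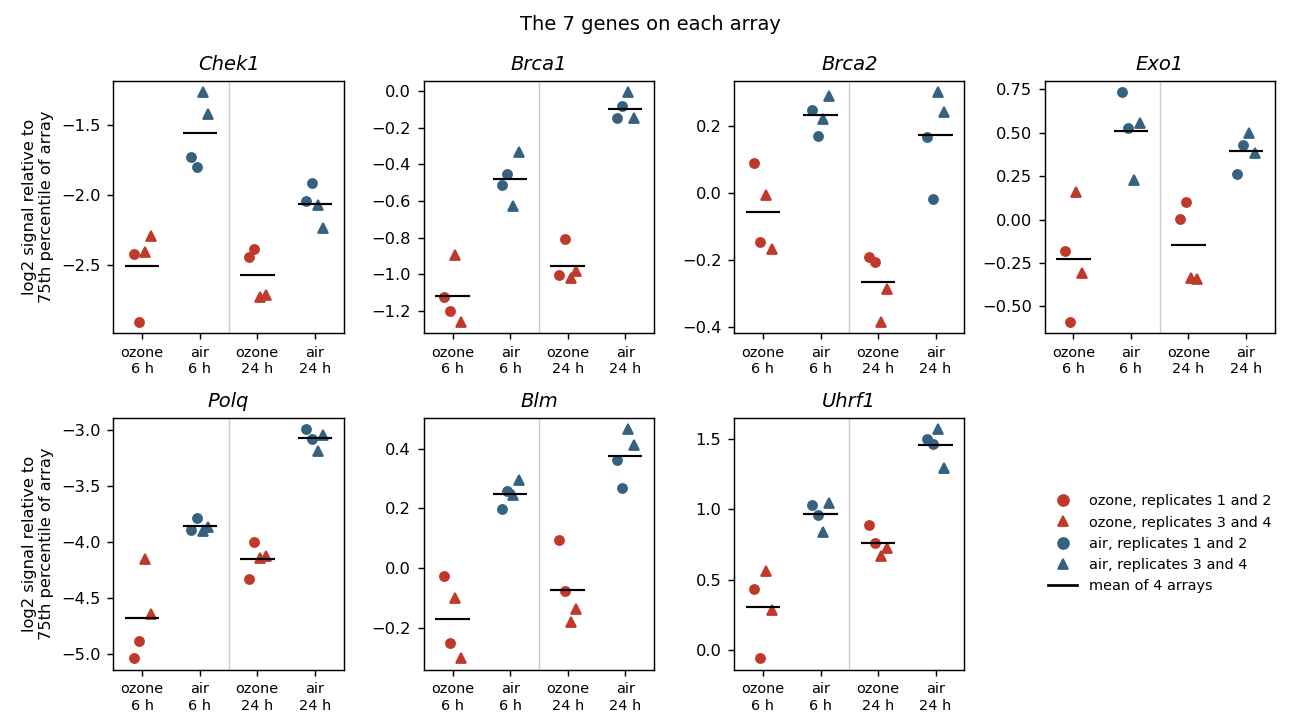
Level of each of the 7 genes on every array, as log2 signal relative to the array's 75th percentile, with a panel and a scale per gene. Points are single lungs, circles for replicates 1 and 2 and triangles for replicates 3 and 4, which lay on different slides, and black lines are means of 4 arrays. In every panel the 4 ozone lungs lie below the 4 air lungs of the same time.

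Over the 7 genes, 6 fell and 0 rose at 6 h, where 3.12% of all genes tested fell and 1.36% rose. Their differences lay between -0.96 and -0.29, with a median of -0.66. At 24 h 5 fell and 0 rose, where 1.31% of all genes fell and 0.675% rose, and the differences lay between -1.07 and -0.44, with a median of -0.54. With normexp the median of all genes shifted, to 0.14 at 6 h and -0.13 at 24 h, and that of the 7 genes was -0.51 and -0.58. Brca1, Polq, Blm and Uhrf1 fell at both times, as did 91 of all genes (0.421%). All 7 had their 4 ozone lungs below their 4 air lungs at 6 h, which held for 4.87% of all genes, and all 7 had so at 24 h, which held for 4.96%. The 7 genes were chosen with earlier results of these data known, so setting them beside these shares describes them and tests nothing. In the fit of single probes, where 2.62% of probes fell at 6 h and 1.12% at 24 h, the second probes of Chek1 and Uhrf1 fell at 6 h and that of Uhrf1 at 24 h. On each slide alone, with 2 ozone and 2 air lungs, every one of the 7 differences was negative, between -1.13 and -0.24 on the 6 h slides and between -1.13 and -0.27 on the 24 h slides. So fitted, 2 and 3 of the 7 passed on the 6 h slides of replicates 1 and 2 and of replicates 3 and 4, and 1 and 6 on those of 24 h. In the same fits 41 and 487 of all genes fell on the 6 h slides, and 28 and 230 on those of 24 h. Without ozone replicate 3 of 6 h, the array that stood apart, the 6 h differences lay between -0.999 for Polq and -0.31 for Brca2. A fit to the 8 arrays of 6 h by themselves leaves the differences as they are but estimates the spread from fewer arrays, and in it Chek1 and Brca1 were the 2 genes still called. Exo1, Blm, Uhrf1 and Polq then had limma adjusted p = 0.0614, 0.0614, 0.0521 and 0.15.

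**Figure D2:**
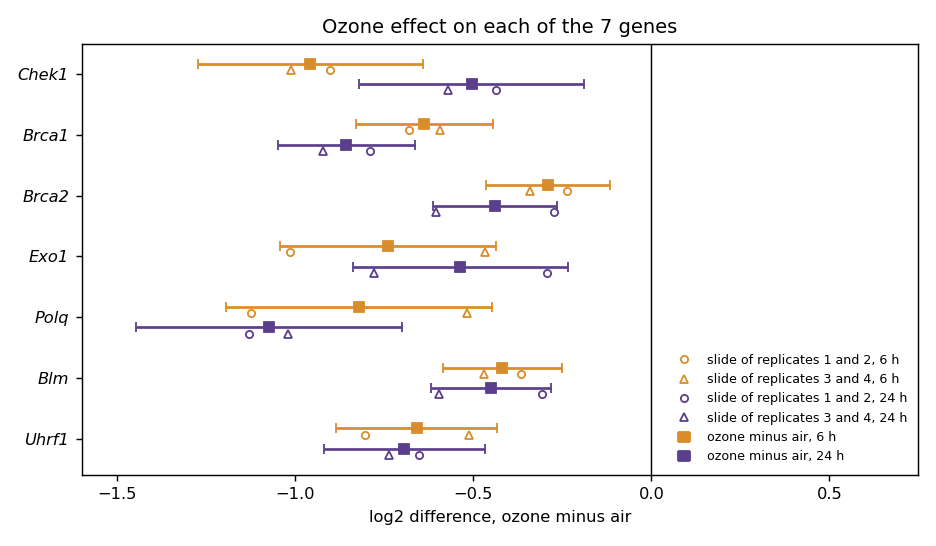
Ozone minus air difference on the log2 scale for each of the 7 genes at 6 h and 24 h. Squares are limma estimates over 4 ozone and 4 air lungs with 95% intervals, and open circles and triangles are the differences within single slides of 2 ozone and 2 air lungs. All lie below 0, from -0.96 for Chek1 to -0.29 for Brca2 at 6 h, and slides differ most for Exo1 and for Polq at 6 h.

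The ozone effects at 6 h and 24 h were compared within 1 fit. The change of the effect passed for 0 of the 7 genes in limma and for 14 of all genes (0.0647%), and at an unadjusted p under 0.05 it passed for 1 of the 7, Chek1. The difference of Chek1 was smaller in size at 24 h by 0.45 ± 0.21 (SE, 95% interval 0.01 to 0.90, limma unadjusted p = 0.0475, adjusted p = 0.393), but with normexp the change was -0.0257. Exo1 had the same sign, 0.20 ± 0.20. Brca1 at -0.22 ± 0.13, Brca2 at -0.15 ± 0.12 and Polq at -0.25 ± 0.25 had estimates that were larger in size at 24 h. Blm and Uhrf1 were nearest to 0, at -0.03 ± 0.11 and -0.03 ± 0.15. The intervals are wide, so that a change of Polq's effect between -0.78 and 0.28 is within the error.

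For comparison, the 11 listed subunits of the replicative helicase (the MCM ring, the GINS complex and Cdc45) had median differences of -0.67 at 6 h and -0.45 at 24 h, and 10 fell at 6 h and 5 at 24 h. The 19 listed genes of mitosis, among them cyclins, kinesins and spindle checkpoint kinases, had medians of -0.22 at 6 h and -0.93 at 24 h, and 5 fell at 6 h and 19 at 24 h. Of all genes tested, 3.12% fell at 6 h and 1.31% at 24 h. The change from 6 h to 24 h was above 0 for each of the 11 helicase genes (median 0.20) and below 0 for each of the 19 mitosis genes (median -0.67), and among the 7 genes it was -0.03 in the median. In limma 0 genes of these lists were called for that change, and 4 helicase and 17 mitosis genes had an unadjusted p under 0.05. By these estimates Chek1 and Exo1 were lower by more at 6 h, and Brca1, Brca2 and Polq were lower by more at 24 h. The estimate of Chek1 turned sign with normexp, and that of Polq turned with quantile normalization (0.146) and with the deposited table (0.133).

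**Figure D3:**
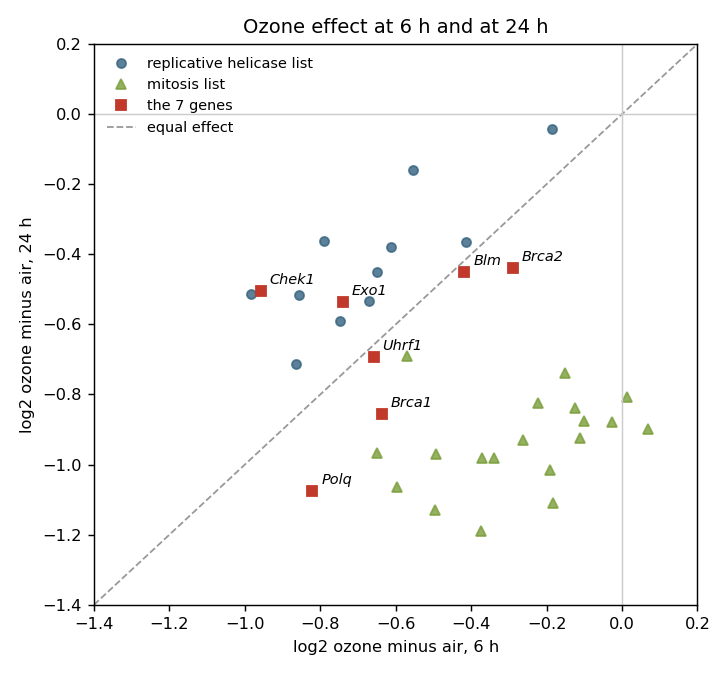
Ozone minus air difference (log2) at 24 h plotted against that at 6 h, 1 point per gene, for the 7 genes (squares), 11 replicative helicase genes (circles) and 19 mitosis genes (triangles). The dashed line marks an equal effect at both times. Blm and Uhrf1 lie close to that line, Chek1 and Exo1 lie above it among the helicase genes, and the mitosis genes all lie below it.

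The levels over the 4 groups were also ordered, bearing in mind that 6 h and 24 h lungs were run apart on slides of their own, so that age, time and run cannot be told apart, and 49.8% of all genes differed between the air groups. P-values were adjusted within each pair of groups. Between 6 h ozone and 24 h air 10621 genes passed, against 970 and 429 between ozone and air at 6 h and 24 h. Smaller differences could thus pass across times than within a time. Chek1 was lowest in 24 h ozone lungs (-2.57) and 6 h ozone lungs (-2.51), whose difference did not pass (limma adjusted p = 0.776). Next came 24 h air lungs (-2.07) and 6 h air lungs (-1.55), but the difference of 24 h ozone and 24 h air did not pass (limma adjusted p = 0.106). Brca1 ran from 6 h ozone (-1.12) and 24 h ozone (-0.95), a pair whose difference did not pass (limma adjusted p = 0.151), through 6 h air (-0.48) to 24 h air (-0.10). Brca2 ran from 24 h ozone (-0.27) over 6 h ozone (-0.06) to 24 h air (0.17) and 6 h air (0.23), where the difference of the air groups did not pass (limma adjusted p = 0.574). That of 6 h ozone and 6 h air did not pass either (limma adjusted p = 0.0541). For Exo1 no difference between neighbours in the order passed, from 6 h ozone (-0.23) over 24 h ozone (-0.14) and 24 h air (0.39) to 6 h air (0.51), with limma adjusted p between 0.0662 and 0.668.

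Blm was at -0.17 in 6 h ozone and -0.07 in 24 h ozone lungs, which were not told apart (limma adjusted p = 0.355), and at 0.25 in 6 h air and 0.38 in 24 h air lungs, which were not either (limma adjusted p = 0.197). On the brightest probes Polq and Uhrf1 shared 1 order, namely 6 h ozone, 24 h ozone, 6 h air and 24 h air. Polq was at -4.68, -4.15, -3.86 and -3.07 in that order, and Uhrf1 was at 0.31, 0.76, 0.97 and 1.45. In both genes the 24 h ozone and 6 h air lungs were the neighbours that were not told apart (limma adjusted p = 0.192 for Polq and 0.126 for Uhrf1). The second Uhrf1 probe, well above background on all 16 arrays, gave another order, with 6 h ozone at -0.79, 6 h air at -0.14, 24 h ozone at 0.28 and 24 h air at 0.85. Between the air groups, 24 h minus 6 h, Chek1 was lower by -0.51 ± 0.15 (limma adjusted p = 0.00846), where 28.5% of all genes were lower. Brca1, Polq and Uhrf1 were higher, by 0.38 ± 0.09, 0.79 ± 0.18 and 0.49 ± 0.11 (limma adjusted p = 0.00183, 0.00125 and 0.000985), where 21.4% of all genes were. With normexp Chek1 and Polq lost these calls, at -0.19 and 0.65 (limma adjusted p = 0.336 and 0.0528). The mean of both Chek1 probes, at -0.38, was not called either (limma adjusted p = 0.0569). The second probe of Chek1 gave -0.24 ± 0.17 (limma adjusted p = 0.262, adjusted over all probes) and that of Uhrf1 gave 0.998 ± 0.11.

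Across the 16 arrays the 7 genes varied together. Over their 21 pairs Pearson's r lay between 0.45 and 0.93, with a median of 0.79, and after each group's mean was taken off, between -0.16 and 0.86, with a median of 0.43. These are descriptions over arrays that share slides and exposure groups, and no test was made. Among the genes outside the 7 whose profile was most like their mean over the 16 arrays were Brip1 (r = 0.967), whose protein is a helicase partner of BRCA1, Trip13 (r = 0.957), an ATPase of the meiotic and mitotic checkpoints, Rfc5 (r = 0.955), a subunit of the clamp loader, and Fanci (r = 0.942), of the Fanconi anaemia pathway. With group means taken off, r was 0.78 for Brip1, 0.85 for Trip13, 0.72 for Rfc5 and 0.74 for Fanci. With ozone Brip1 differed by -0.65 at 6 h and -0.75 at 24 h, and Trip13 by -0.46 and -0.64.

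Closest partners were also taken gene by gene. Chek1 was most like Hells (r = 0.973), a chromatin remodeller, and Exo1 most like the helicase subunit gene Mcm6 (r = 0.936). Polq and Uhrf1 were both most like Rrm2 (r = 0.968 and 0.971), which encodes the ribonucleotide reductase subunit that limits the supply of DNA precursors. Brca1 was most like Ckap2l (r = 0.957), which encodes a spindle protein, Brca2 most like Ncapg2 (r = 0.931), of a condensin complex, and Blm most like Pkmyt1 (r = 0.951), an inhibitory kinase of CDK1. After each group's mean was taken off, r was 0.91 for Chek1, 0.80 for Exo1, 0.94 for Brca1 and 0.91 for Blm. It was 0.60 for Polq, 0.70 for Uhrf1 and 0.52 for Brca2, each with the same partner.

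The wider pathways of the 7 genes changed in part. For this list and those that follow, the background is all genes tested, of which 3.12% fell at 6 h and 1.31% at 24 h. The medians of all genes were 0.07 and 0.02. Of 20 genes of the replication stress checkpoint, Chek1 included, 5 fell at 6 h and 3 at 24 h, none rose, and the list medians were -0.26 and -0.32. At 6 h Tipin, of the fork protection complex, fell by 0.73 ± 0.10 on the log2 scale (SE, limma adjusted p = 0.00152), and the single-strand binding subunits Rpa2 and Rpa3 and the ATR activator Topbp1 differed by -0.48, -0.49 and -0.33. At 24 h Topbp1 (-0.55 ± 0.07, limma adjusted p = 0.000600), the phosphatase gene Cdc25c (-0.97 ± 0.16, limma adjusted p = 0.00235) and Pkmyt1 (-0.60 ± 0.12, limma adjusted p = 0.0115) fell. Of 15 tested genes that sense broken ends, Nbn (-0.38) and Mre11a (-0.33) fell at 6 h and the histone gene H2ax (-0.78) at 24 h, and the medians were -0.17 and -0.10. Of the 16 fits with 1 array left out, 2 called Mre11a, and 1 of its 2 other probes had the opposite sign.

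Of 25 genes of end resection and homologous recombination, 8 fell at each time and none rose, with medians of -0.29 and -0.27. Besides Brca1 and Exo1 those at 6 h included Fignl1 (-0.79 ± 0.12, limma adjusted p = 0.00256), Psmc3ip (-0.68) and Brip1 (-0.65). Besides Brca1 and Brca2 those at 24 h included Brip1 (-0.75 ± 0.11, limma adjusted p = 0.000954), Rad54b (-0.76 ± 0.11, limma adjusted p = 0.00112) and Fignl1 (-0.59). PSMC3IP helps strand invasion, and RAD54B is a motor protein of recombination. With the 3 members among the 7 left out, 6 of 22 fell at each time.

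Among 13 tested RecQ helicases and genes that process junctions, Blm alone fell at 6 h. At 24 h Blm, the junction nuclease gene Gen1 (-0.91 ± 0.15, limma adjusted p = 0.00233) and the helicase gene Recql4 (-0.67 ± 0.14, limma adjusted p = 0.0200) fell. Of 16 genes of the Fanconi anaemia pathway, which repairs crosslinks, 3 fell at 6 h and 4 at 24 h. Fanci fell at both times (-0.64 and -0.84, limma adjusted p = 0.00308 and 0.000267), Fancl (-0.43) and Usp1 (-0.41) fell at 6 h, and Fancd2 (-0.83), Ube2t (-0.59) and Fanca (-0.44) fell at 24 h. FANCD2 and FANCI form the clamp that UBE2T and FANCL mark with ubiquitin and USP1 releases.

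Of 14 genes of end joining, Polq fell at both times. The other gene that fell at 6 h was the ligase gene Lig1 (-0.37 ± 0.10, limma adjusted p = 0.0394), which 10 of the 16 fits with 1 array left out also called, and none but Polq fell at 24 h. The genes of the classical pathway were not called, with Xrcc6 at -0.38 and Xrcc5 at -0.28 at 6 h (limma adjusted p = 0.152 and 0.149) and Lig4 at 0.47 at 24 h (limma adjusted p = 0.0668). Of 8 mismatch repair genes Exo1 alone fell at 6 h, and 0 fell at 24 h in limma, with 1 at an unadjusted p under 0.05. The list median was -0.21 at 6 h.

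Of 13 genes of DNA methylation and its upkeep, Uhrf1, Hells (-0.70 ± 0.12, limma adjusted p = 0.00606) and Cdca7 (-0.60 ± 0.08, limma adjusted p = 0.000804) fell at 6 h. Hells and Cdca7 encode the 2 parts of a remodeller that opens chromatin to methylation. At 24 h Uhrf1 and Dnmt1 (-0.40 ± 0.09, limma adjusted p = 0.0319), the maintenance methyltransferase gene that UHRF1 serves, fell, and Hells was at -0.47 (limma adjusted p = 0.0595). The list medians were -0.07 and -0.16, and with normexp that of 6 h turned to 0.03.

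Some of these counts rested on single arrays. Of the genes named above as lower, Rpa3, Usp1, Lig1 and Dnmt1 each passed in 10 of the 16 fits with 1 array left out, Ube2t in 11 and Fanca in 8. Without air replicate 4 of 6 h, 2 checkpoint genes, 0 break sensing genes, 1 Fanconi gene, 0 end joining genes and 2 mitosis genes fell at 6 h, and without ozone replicate 2 of 6 h 3 checkpoint genes did. Without any 1 array other than air replicate 2 or 3 of 6 h or ozone replicate 1 of 24 h, 1 or 0 break sensing genes fell at 6 h. Without ozone replicate 1, 2 or 4 or air replicate 1 of 6 h, or ozone replicate 2 of 24 h, 1 end joining gene fell at 6 h. Without air replicate 2 of 6 h, 13 recombination genes and 3 mismatch repair genes fell. Without ozone replicate 1 or air replicate 3 of 6 h 2 mismatch repair genes did, and without air replicate 3 of 6 h 2 RecQ and junction genes did. The mitosis count at 6 h was 2 without ozone replicate 1, 2 or 4 of 6 h too, and 3 without air replicate 1 or 3 of 6 h, ozone replicate 2 of 24 h or any air replicate of 24 h.

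At 24 h, 5 recombination genes fell without air replicate 2 or ozone replicate 3 or 4 of that time. Without ozone replicate 3 or 4, or air replicate 1, 3 or 4 of 24 h, 2 Fanconi genes and 1 methylation gene fell. Without replicate 3 of either group or air replicate 4 of 24 h, 3 helicase genes did. At 24 h 2 break sensing genes fell without ozone replicate 3 of 6 h, and 2 end joining genes fell without ozone replicate 1 of 24 h. Without ozone replicate 2 or 3 or air replicate 3 of 6 h, or ozone replicate 2 of 24 h, 1 mismatch repair gene did. The mitosis count at 24 h lay between 15 and 19 in the 16 fits with 1 array left out. On the slide of replicates 1 and 2 of 24 h alone, 5 mitosis genes, 0 helicase genes and 1 recombination gene fell, against 19, 6 and 7 on the slide of replicates 3 and 4. With the 6 h arrays alone, 7 helicase, 5 recombination, 2 checkpoint, 1 mitosis, 1 Fanconi and 1 methylation gene fell at 6 h, and 0 genes of break sensing, RecQ and junctions, end joining and mismatch repair.

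**Figure D4:**
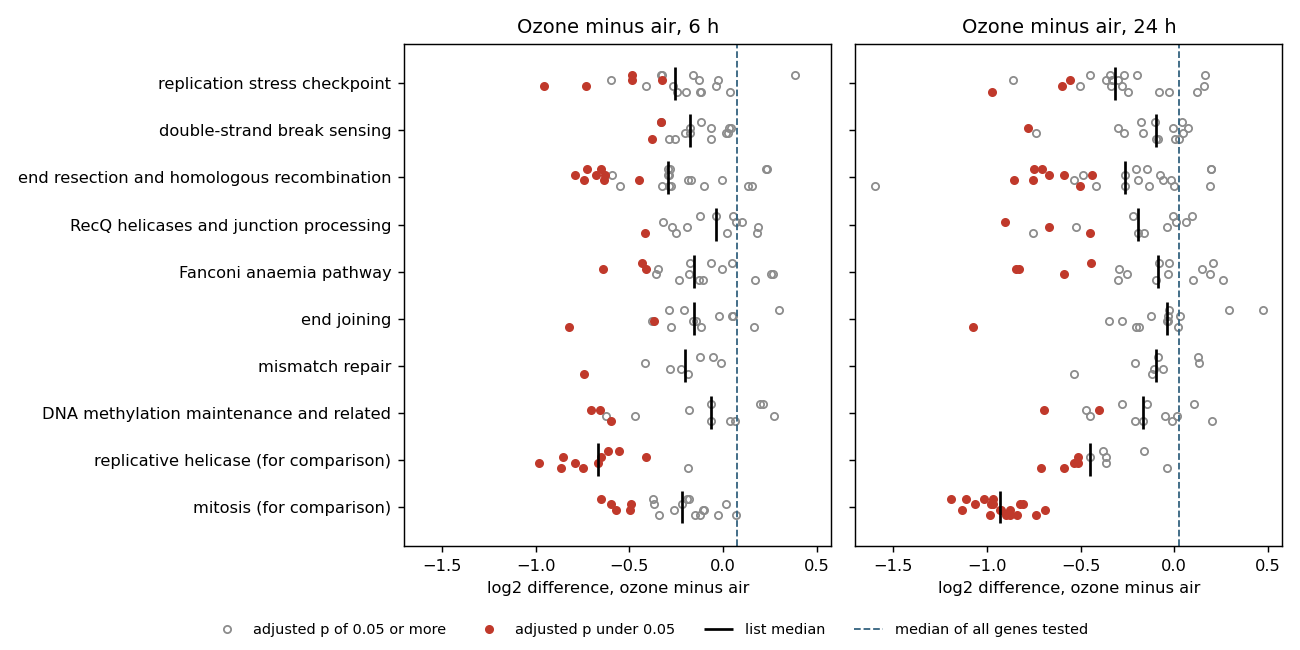
Ozone minus air difference (log2) of each tested gene in 10 gene lists, at 6 h on the left and 24 h on the right. Filled points have a limma adjusted p under 0.05, black bars are list medians and the dashed line is the median of all genes, 0.07 at 6 h and 0.02 at 24 h. All filled points lie below 0, and they make up most of the helicase list at 6 h (10 of 11) and all of the mitosis list at 24 h (19 of 19).

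Markers of the cell types that whole lung can hold were read on the same arrays. The 7 markers of lung epithelium and endothelium were well above background on all 16 arrays, and none was called at either time. Their summed signal, in multiples of the 75th percentile, lay between 796 and 922 in ozone lungs and between 754 and 854 in air lungs at 24 h. At 24 h the B cell genes Cd79b (0.70) and Vpreb3 (0.94) were higher in ozone (limma adjusted p = 0.00520 and 0.000159), 2 of 5 such markers, and the summed B cell signal was 5.70 to 7.80 in ozone lungs and 3.73 to 4.56 in air lungs. Of 6 markers of T cells and thymus, Lck (0.51) and Cd8b1 (0.95) were higher at 24 h (limma adjusted p = 0.0457 and 0.0178). Cd3d (0.38), Rag1 (1.12) and Dntt (0.21) were not called. Cd3e had the other sign, at -0.33, and was not called either (limma adjusted p = 0.681). The sums of these markers were 1.37 to 2.39 in ozone lungs and 1.12 to 1.36 in air lungs. Of all genes tested, 0.675% rose and 1.31% fell at 24 h. Cd79a was well above background on 13 of 16 arrays and Rag1 on 7. Of 5 measured markers of erythroid precursors, which divide, Klf1 was lower at 24 h (-0.99, limma adjusted p = 0.0305), while the sum was 172 to 320 in ozone lungs and 137 to 341 in air lungs.

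At 6 h none of these genes was called. The summed signal of T cell and thymus markers was 0.918 to 1.27 in ozone lungs and 0.83 to 0.902 in air lungs. The lowest of these ozone sums was close to the highest air sum, and the sums were not tested. That of B cell markers was 6.35 to 9.70 in ozone lungs and 6.64 to 9.10 in air lungs. None of 4 heart muscle and 5 neutrophil markers was called at either time. The part of these cell types in the levels of the 7 genes was not tested.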

How the data were processed

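RNA of 16 whole mouse lungs was hybridised singly to Agilent arrays with 1 colour (Cy3), per the labels. The authors deposited scanner files of spot intensity written by Agilent Feature Extraction 10.7.1.1, per the file headers, with the background subtracted and no scaling between arrays. Other values in the deposited files are flags, for saturation, for uneven spots and for signal well above background. A deposited value table holds the authors' normalized log2 values. Its times appear to have been normalized apart, and it served only as an alternative.

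Here the processed signal was averaged over spots of a probe, put on the log2 scale and set against each array's 75th percentile over 41174 probes. Control probes and 126 probes with uneven spots were left out, and the 32351 probes that 4 or more of the 16 arrays showed well above background were kept. The brightest probe stood for a gene. Symbols came from the accession for 25097 probes, from a symbol or synonym in a RefSeq table for 6333 and 1640, and from the files for 8104. Groups were compared in limma 3.58.1 (R 4.3.3), by lmFit with 1 mean per group and eBayes with a trend, and all adjusted p-values are two-sided. Errors are SE unless given as SD, and the number of arrays limits the precision (median SE of all genes 0.13). The fit was tested on simulated data. It recovered 67% and 71% of 2-fold changes at 6 h and 24 h, and 49% and 44% of the smaller changes put in. Of its calls 7.2% and 5.74% were false. The 7 genes, the lists, the markers and the motifs were chosen with earlier results of these data known. The genes named are the 7, up to 4 further genes with the smallest p per list and ozone contrast, and those with the highest r. Some genes that this rule takes are not reported here. Alternatives were normexp background correction (offset 50), quantile normalization, the deposited table, 2 other filters, the mean of probes, slide and replicate blocks, each slide, each time alone, array weights, Xist as a covariate and leaving out each array.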

Additional observations from a re-analysis of the deposited data

How the results depend on the processing

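The 7 genes kept a negative ozone minus air difference at both times under every alternative run. The number of them that fell was 6 at 6 h and 5 at 24 h. At 6 h it was 2 on the slide of replicates 1 and 2, 3 on the slide of replicates 3 and 4 and 2 with the 6 h arrays alone, and at 24 h it was 1 on the slide of replicates 1 and 2. Leaving out 1 array gave 5 to 7 at 6 h and 5 to 6 at 24 h. The replicate block gave 4 at each time, with Polq and Blm lost at 6 h (adjusted p = 0.0585 and 0.0557) and Brca2 at 24 h (adjusted p = 0.0538). Ozone and air lungs with the same number correlated between -0.008 and 0.195 in their deviations, so the numbers were not taken as pairs. The best-matching number belonged to the same slide in every case. With slide as a block 6 of the 7 genes fell at 6 h and 6 at 24 h. Genes called over all genes numbered 970 at 6 h, and 247 with the replicate block, 53 on the slide of replicates 1 and 2, 100 with the 6 h arrays alone, 1814 with array weights, 558 with Xist as a covariate and 196 to 1690 without 1 array. At 24 h they numbered 429, and 653 with normexp, 261 with the replicate block, 47 and 255 on the slides of replicates 1 and 2 and of replicates 3 and 4, 1738 with array weights, 245 with Xist and 263 to 530 without 1 array. With normexp 152 genes rose and 801 fell at 6 h, against 295 and 675 in the values reported, and 327 rose and 326 fell at 24 h, against 146 and 283. For the change of the effect from 6 h to 24 h the count of 14 became 547 with normexp, 38 with quantile normalization, 6 with slide as a block, 1 with the replicate block, 441 with array weights and 0 to 264 without 1 array. In each of these 0 of the 7 were called for that change in either direction. Between the air groups, 1 of the 7 was lower, and 0 were with normexp or the mean of probes.

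Some estimates turned sign, and not all of them were near 0. The change from 6 h to 24 h was 0.45 for Chek1 and -0.25 for Polq in the values reported. It became -0.0257 for Chek1 with normexp, and 0.146 and 0.133 for Polq with quantile normalization and the deposited table. For Blm it became 0.0414 with array weights and lay between -0.0887 and 0.0152 without 1 array. For Uhrf1 it became 0.0364 with normexp, 0.0167 with the mean of probes and 0.0908 with array weights, and lay between -0.156 and 0.0503 without 1 array. The Brca2 difference in air lay between -0.102 and 0.00363 without 1 array. The cause of these changes was not tested, except that fits of 1 slide or 1 time hold fewer arrays. Dim probes, such as that of Polq, limit what the arrays can resolve.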
